A study of Mus musculus with 8 samples.

Results

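The subunits of respiratory complexes II to V were examined in lung group 2 innate lymphoid cells (ILC2s), tissue lymphocytes that release type 2 cytokines without carrying an antigen receptor. Members were taken by symbol from the genes present in both deposited tables. They were Sdha to Sdhd, symbols beginning with Uqcr, Cox4i, Cox5, Cox6, Cox7, Cox8 or Atp5, and 6 genes of the mitochondrial genome, without pseudogene symbols. This gave 48 of 14956 shared genes, namely 4 of complex II, 8 of complex III, 14 nuclear genes of complex IV, 16 nuclear genes of complex V and 6 genes encoded in mitochondrial DNA (mtDNA). A further 6 symbols of the same families were in the bulk table alone, and Atp5f1 was in the single-cell table alone. RefSeq lists Atp5f1 as an older symbol of Atp5pb, so this subunit b gene of complex V is not a member. The symbol rule also leaves out Cyc1 of complex III and Ndufa4 of complex IV.

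All cells came from wild type C57BL/6 mice, of an age that the labels leave out. Bulk full-length libraries (Smart-Seq2, 2000 sorted cells each) came from females that had received, through the nose on 3 days, IL-33 plus dopamine (3 libraries) or IL-33 plus PBS (3 libraries). Both bulk groups thus received IL-33, and they are called dopamine and PBS for short. Droplet 3' libraries (10x) came from male mice whose cells carried hashtag antibodies and were pooled. The cell table assigned hashtags 6, 7 and 8 to IL-33 plus dopamine, hashtags 3, 4 and 5 to IL-33 and hashtags 1 and 2 to PBS. IL-33 is an epithelial alarmin that activates ILC2s, and dopamine is a catecholamine neurotransmitter. The labels do not say that a hashtag was 1 mouse, so p-values over hashtags measure the spread between hashtags, which may be technical.

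The respiratory chain passes electrons from metabolites to oxygen and pumps protons across the inner mitochondrial membrane. Complex II (succinate dehydrogenase) also belongs to the TCA cycle and is built from nuclear genes alone. Complex III moves electrons from ubiquinol to cytochrome c, complex IV (cytochrome c oxidase) moves them on to oxygen, and complex V (ATP synthase) uses the proton gradient to make ATP. Complexes III, IV and V combine nuclear-encoded subunits with subunits encoded in mtDNA, so their assembly draws on both genomes. ILC2s are known to use oxidative phosphorylation, and the study's title concerns mitochondrial activity under dopamine.

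Promoters are shown for 1 nuclear member of each complex, the one with the smallest bulk p among members with an entry in the RefSeq promoter table (GRCm38.p6), because most members' bulk levels were lower together. Each window holds 250 bases before and 50 bases after the annotated start, read 5′ to 3′ on the gene's strand. Capitals mark exact matches, on either strand, to GCATGCGC (the core of the NRF1 site, searched also as GCGCATGC), to CCGGAAG (the ETS site that GABP binds, searched also as CTTCCGG) or to AAGATGGC (the YY1 site, searched also as GCCATCTT). NRF1, GABP and YY1 are transcription factors known for binding promoters of respiratory genes. Sdhb lies on the plus strand at chr4:140961021-140961320, Uqcr11 on the minus strand at chr10:80406772-80407071, Cox8a on the minus strand at chr19:7217567-7217866 and Atp5e on the minus strand at chr2:174464052-174464351.
Sdhb: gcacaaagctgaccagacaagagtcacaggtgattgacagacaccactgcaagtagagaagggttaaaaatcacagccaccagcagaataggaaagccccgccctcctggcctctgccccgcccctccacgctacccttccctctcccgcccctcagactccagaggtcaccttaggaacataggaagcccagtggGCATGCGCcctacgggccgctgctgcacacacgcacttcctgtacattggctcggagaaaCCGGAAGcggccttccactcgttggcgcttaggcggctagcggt
Uqcr11: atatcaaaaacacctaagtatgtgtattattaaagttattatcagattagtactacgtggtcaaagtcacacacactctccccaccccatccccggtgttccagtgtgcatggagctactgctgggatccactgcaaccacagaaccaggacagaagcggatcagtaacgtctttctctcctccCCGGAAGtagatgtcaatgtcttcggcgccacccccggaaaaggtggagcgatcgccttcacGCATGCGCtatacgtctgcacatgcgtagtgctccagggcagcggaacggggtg
Cox8a: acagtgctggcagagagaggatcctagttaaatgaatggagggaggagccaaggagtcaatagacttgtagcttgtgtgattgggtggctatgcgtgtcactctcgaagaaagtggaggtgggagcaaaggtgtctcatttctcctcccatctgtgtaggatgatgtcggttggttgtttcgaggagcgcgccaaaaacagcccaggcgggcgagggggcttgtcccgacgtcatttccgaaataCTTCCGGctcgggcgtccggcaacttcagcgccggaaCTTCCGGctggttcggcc
Atp5e: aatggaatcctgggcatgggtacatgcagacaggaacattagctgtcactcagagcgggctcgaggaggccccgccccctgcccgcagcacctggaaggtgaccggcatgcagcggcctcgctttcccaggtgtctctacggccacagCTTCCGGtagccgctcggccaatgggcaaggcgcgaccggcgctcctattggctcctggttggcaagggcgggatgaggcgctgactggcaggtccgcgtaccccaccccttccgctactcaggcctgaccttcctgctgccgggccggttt
The Sdhb and Uqcr11 windows each held 1 NRF1 core and 1 ETS match, the Cox8a window held 2 ETS matches and the Atp5e window held 1 ETS match. Of the 42 nuclear members, 33 had a promoter entry. The NRF1 core was present in 7 of these 33 (21.2%), against 3.05% of 27025 genes with an entry. The ETS letters were present in 13 of 33 (39.4%), against 9.93% of all genes with an entry. The YY1 letters were present in 2 of 33 (6.06%), against 3.19%. The median bulk log2 fold change was -0.61 over the 13 members with the ETS letters and -0.52 over the 20 without them, and -0.62 and -0.52 over the 7 with and the 26 without the NRF1 core. For the YY1 letters it was -0.57 over the 2 members with them and -0.57 over the 31 without. These are descriptions of letters in a short window and were not tested. The background took in every gene with an entry, whether or not it was expressed in these cells.

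The labelled cell type was checked on markers. The 8 ILC2 markers, Gata3 and Il1rl1 among them, summed to 2786 to 4087 TPM (a length-corrected share of a library, in which all genes sum to 1000000) with IL-33 plus dopamine and 2065 to 3388 TPM with IL-33 plus PBS. Libraries of the dopamine group also stood apart in some values that were not respiratory. The T cell marker sums were separated only barely, and the macrophage, B cell, epithelial and erythroid sums overlapped between the groups. The dopamine libraries held 11502, 11529 and 11745 genes at 1 TPM or more, against 11384, 9822 and 10525 with IL-33 plus PBS. The 6 NK cell and ILC1 markers summed to 103 to 195 TPM, against 7.67 to 47.4 TPM, and the 8 T cell markers to 895 to 1450 TPM, against 571 to 895 TPM. Macrophage markers summed to 1.29 to 405 TPM, against 11.5 to 143 TPM, and B cell markers to 45.1 to 72.6 TPM, against 26.8 to 52.9 TPM. The 4 endothelial and fibroblast markers summed to 23.8 to 27.96 TPM with dopamine, against 7.33 to 22.1 TPM with PBS, without overlap, with Cdh5, Col1a1 and Col3a1 listed at 0 in all 6 libraries. Epithelial markers summed to 8.87 to 20.3 TPM, against 8.44 to 9.90 TPM (Scgb1a1 at 0), and erythroid markers to 27.8 to 49.1 TPM, against 43.9 to 59.0 TPM (Hbb-bs and Alas2 at 0). The transcript CT010467.1, which derives from ribosomal RNA, took 5.63% to 6.12% of TPM, against 3.48% to 4.02%. In the droplet data 9076 cells were deposited, 311 to 1516 per hashtag and 1397576 to 9268932 UMIs (unique molecules) per hashtag, and no barcode carried more than 1 hashtag. There the NK cell and ILC1 markers summed to 163 to 181 UMIs per 1000000 with IL-33 plus dopamine. The sums were 155 to 166 with IL-33 and 187 to 197 with PBS.

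With dopamine, the nuclear members took a smaller part of the bulk transcriptome. Their summed share was 1.49%, 1.31% and 1.43% of all TPM in the IL-33 plus dopamine libraries, against 1.89%, 2.22% and 1.80% in the IL-33 plus PBS libraries. Every dopamine library was below every PBS library, and the means were 1.41% ± 0.0903 and 1.97% ± 0.223 (SD, n = 3 each), a ratio of 0.715. Complexes III, IV and V each showed the same separation. Complex IV averaged 0.569% ± 0.0312 of TPM with dopamine and 0.794% ± 0.0729 with PBS, and complex V averaged 0.578% ± 0.0557 with dopamine and 0.831% ± 0.114 with PBS. Complex III averaged 0.226% ± 0.00730 and 0.305% ± 0.0511, while the small complex II share, 0.0367% ± 0.00360 with dopamine and 0.0422% ± 0.00670 with PBS, overlapped between the groups. In bulk samples, a lower share of cells that express a gene and less RNA of it per cell cannot be told apart.

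**Figure D1:**
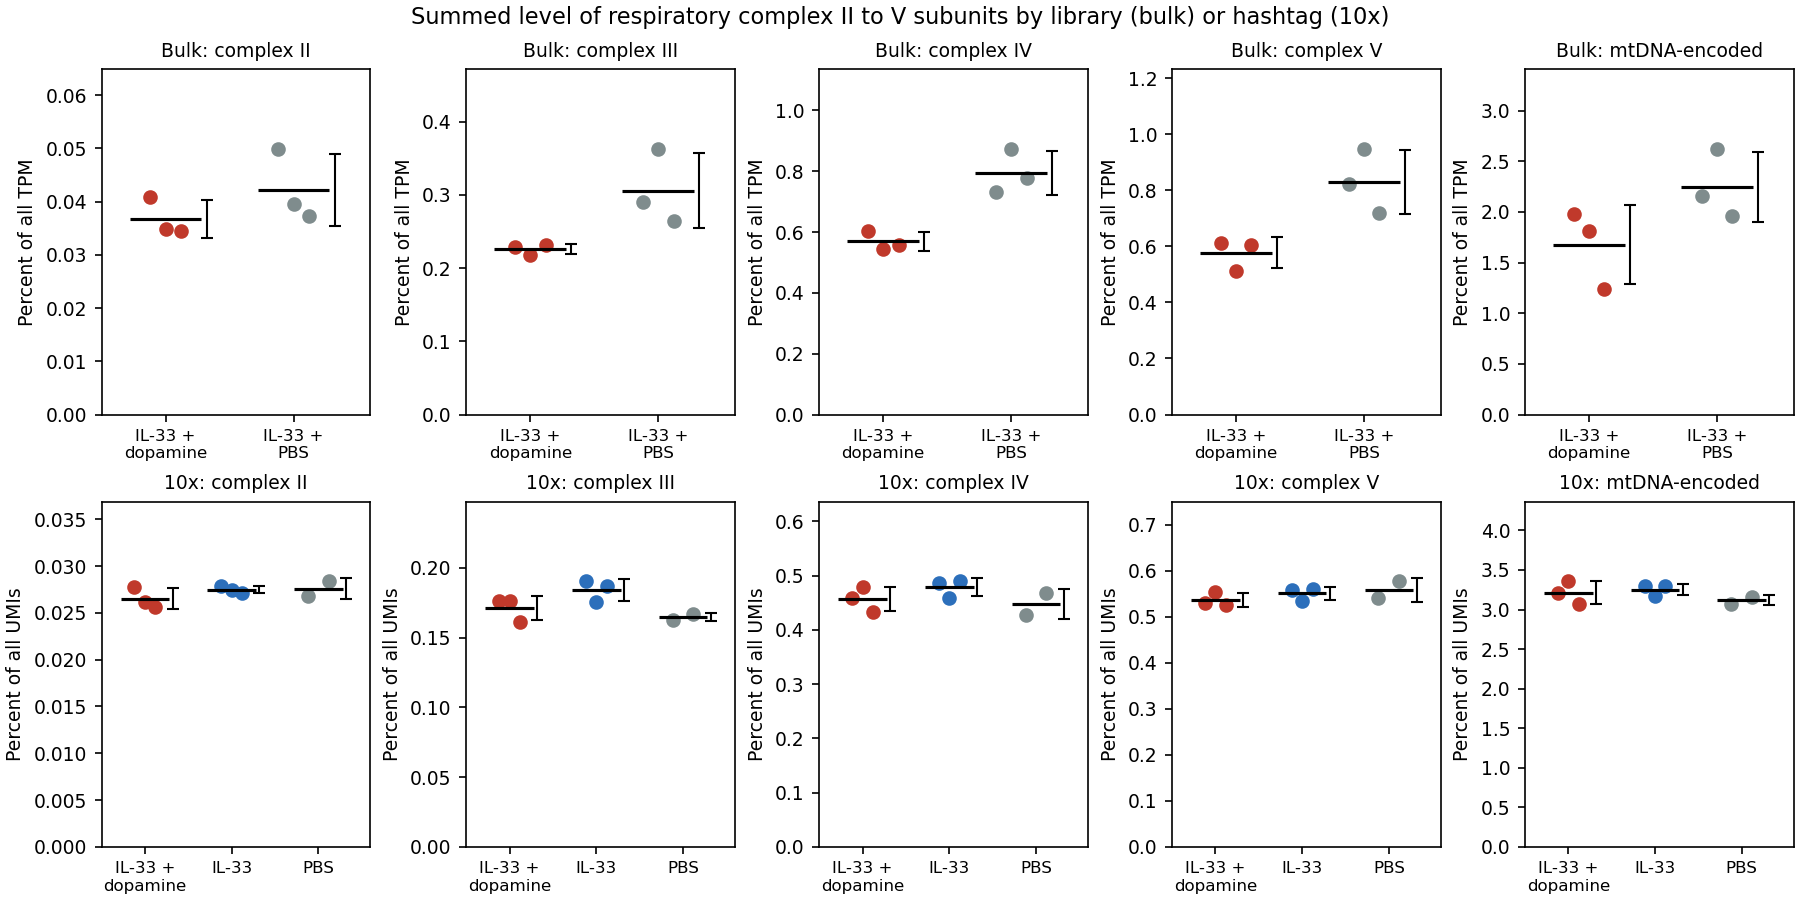
Summed level of each set of members as a percent of all TPM in the 6 bulk libraries (top) and of all UMIs in the 8 hashtags (bottom). Points are libraries or hashtags, bars are means and whiskers are SD. The bulk dopamine points of complexes III, IV and V sit below all PBS points, whereas dopamine and IL-33 hashtags overlap in every 10x panel.

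Single members were read out of a limma fit over all 11222 expressed genes. None of the 46 members tested passed an adjusted p of 0.05 in either direction, where 0.0356% of all genes passed as higher and 0.00% as lower. At an unadjusted p under 0.05, 22 members were lower and 0 higher, against 4.62% of all genes lower and 19.5% higher. For 26 members all 3 dopamine libraries lay below all 3 PBS libraries and for 0 they lay above, against 6.57% and 23.5% of all genes. The median log2 fold change of log2(TPM + 1) was -0.52 over the members and 0.49 over all genes tested, so it is also given relative to the latter, where it was -1.01. Of the 46 members, 45 lay below the median of all genes, which by definition holds for 50% of them.

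The size of this shift depended on how the libraries were treated. The relative median was -0.58 after quantile normalization, -0.43 after trends with transcript length, GC and level were removed, and -0.33 when the fit included the count of detected genes. The 26 members without overlap became 35 after median-of-ratios scaling (15.2% of all genes lower) and 24 after quantile normalization (13.5%, and 1 member higher), and numbered 27 of 44 without PBS library 2 (8.43%). The median of the 46 members in each library, on the log2 scale after subtraction of each gene's mean and of the median of all genes, was -0.36, -0.52 and -0.51 with dopamine and 0.03, 0.99 and 0.34 with PBS. PBS library 2, the highest, also had the fewest detected genes. Members were shorter than other genes (median transcript 581 bases, against 1243 over all tested) and more abundant (median 409 TPM, against 11.4), with a like GC content (50.3% and 50.4%). The part of the detected genes, the other-cell markers and the rRNA-derived transcript in the shift was not tested beyond these fits.

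**Figure D2:**
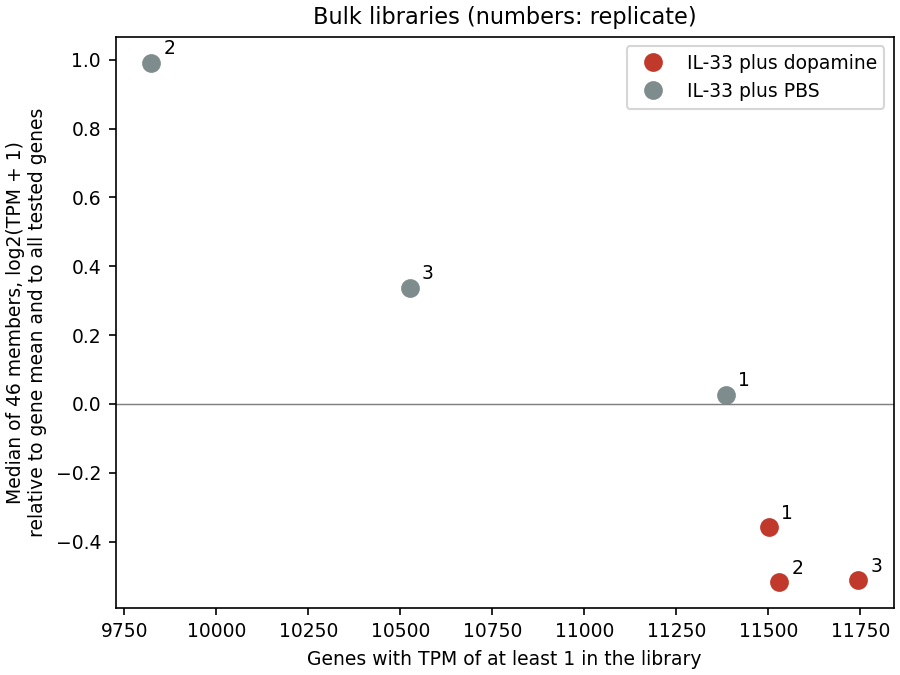
Median log2 level of the 46 tested members in each bulk library, relative to each gene's mean and to all tested genes, against how many genes reached 1 TPM. The 3 dopamine libraries lie lowest and hold the most genes, and PBS library 2 lies highest at 9822 genes.

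Among the comparison lists, the nuclear subunits of complex I, the NADH dehydrogenase that feeds the chain, had a relative median of -1.04, with 23 of 36 without overlap and lower (6.57% of all genes were lower and 23.5% higher without overlap). The cytosolic ribosome had -0.82, with 56 of 84. Both lists thus also lay below the median of all genes, and differences between lists were not tested. Assembly factors of complexes II to V had a relative median of -0.65, with 5 of 35 lower without overlap, and carriers of ATP, ADP and phosphate had -0.90, with 3 of 6. Electron carriers, coenzyme Q enzymes, the ATP synthase inhibitor and subunits outside the symbol rule, Cyc1 and Ndufa4 among them, formed a further list. Its relative median was -0.48, with 2 of 19 lower without overlap and 2 higher. Nuclear regulators of respiratory genes and of mtDNA had 0.26, with 1 of 15 lower and 5 higher. None of the genes in these 6 lists passed an adjusted p of 0.05.

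Complex II was split. Sdhb, the iron-sulfur subunit, was at 225, 153 and 152 TPM in the dopamine libraries, against 263, 287 and 255 TPM in the PBS libraries. The groups did not overlap, with a log2 fold change of -0.62 ± 0.22 (SE, limma adjusted p = 0.147). Sdha, the flavoprotein that oxidises succinate, was at 130, 125 and 128 TPM with dopamine, against 142, 39.1 and 68.3 TPM with PBS. Its dopamine libraries agreed closely and lay inside the wide PBS range, with a log2 fold change of 0.81 ± 0.40 (limma adjusted p = 0.244), and it was the only member above the median of all genes. Sdhc and Sdhd, the membrane anchors, overlapped between groups. Sdhc was at 20.6, 26.4 and 9.33 TPM with dopamine and 28.3, 36.7 and 21.0 TPM with PBS. Sdhd was at 33.5, 44.3 and 55.2 TPM with dopamine and 66.7, 32.2 and 29.4 TPM with PBS, so each of these anchors had wide replicate spread.

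In complex III all 8 members lay below the median of all genes, 5 of them lower without overlap between groups (6.57% of all genes). Cyc1, a complex III subunit outside the symbol rule, was at 95.4, 132.5 and 105 TPM with dopamine. With PBS it was at 153, 140 and 120 TPM, and the groups overlapped. Uqcrq, a small subunit beside cytochrome b, was at 221, 381 and 300 TPM with dopamine, against 437, 651 and 458 TPM with PBS. No dopamine library reached the lowest PBS library, and the log2 fold change was -0.79 ± 0.25 (limma adjusted p = 0.118). Uqcr11, a small accessory subunit, was at 247, 118 and 240 TPM with dopamine and 248, 373 and 301 TPM with PBS, so its groups were separated only narrowly (log2 fold change -0.66, limma adjusted p = 0.213). Uqcrfs1, the Rieske iron-sulfur protein, was at 212, 159 and 194 TPM with dopamine, against 246, 284 and 225 TPM with PBS, also without overlap (log2 fold change -0.42, limma adjusted p = 0.248). The core protein Uqcrc1 was at 252, 240 and 319 TPM with dopamine, against 345, 371 and 277 TPM with PBS, and overlapped. The hinge protein Uqcrh was the most abundant of the complex, at 680 to 800 TPM with dopamine and 800 to 912 TPM with PBS, and its groups touched without crossing.

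Complex IV held the smallest p-value of all members. Cox8a, the ubiquitous form of a small membrane subunit, was at 888, 762 and 916 TPM with dopamine, against 1191, 1620 and 1355 TPM with PBS. The groups were well apart, with a log2 fold change of -0.69 ± 0.16 (limma adjusted p = 0.0832). Cox6b1, which faces the intermembrane space, was at 503, 493 and 467 TPM with dopamine, against 779, 771 and 686 TPM with PBS. Its spread within each group was small, and the log2 fold change was -0.61 ± 0.15 (limma adjusted p = 0.0960). Cox5a, a matrix-side subunit, was at 325, 337 and 240 TPM with dopamine, against 491, 608 and 457 TPM with PBS, again without overlap (log2 fold change -0.79 ± 0.21, limma adjusted p = 0.0962). Cox4i1, the most abundant nuclear member per length, was at 1226, 1063 and 1149 TPM with dopamine, against 1355, 1763 and 1562 TPM with PBS. Ndufa4, a complex IV subunit outside the symbol rule, was at 494, 288 and 407 TPM with dopamine. With PBS it was at 429, 478 and 433 TPM, and the groups overlapped.

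The isoforms of complex IV did not all share this pattern. Cox7a2l (SCAFI) was at 518, 465 and 436 TPM with dopamine, against 274, 325 and 444 TPM with PBS. It overlapped in 1 library of each group and had a log2 fold change of 0.47 ± 0.21 (limma adjusted p = 0.209), level with the median of all genes. Its relative Cox7a2, the widely expressed form, was at 408, 383 and 361 TPM with dopamine and 291, 326 and 516 TPM with PBS, with dopamine inside the PBS range. Forms typical of heart and skeletal muscle were low or listed at 0. Cox7a1 was at 7.17 TPM in dopamine library 3 and at 26.2 and 5.53 TPM in PBS libraries 1 and 2. It was listed at 0 elsewhere. Cox6a2 was at 2.93 TPM in dopamine library 1 and listed at 0 in the other libraries. Cox6b2, the testis form, was at 7.27 TPM in dopamine library 3, and at 7.14 and 12.7 TPM in PBS libraries 1 and 2, and was listed at 0 elsewhere. Cox4i2, Cox6c2, Cox7b2, Cox8b and Cox8c, which were in the bulk table alone, were listed at 0 in all 6 libraries. The forms in use, Cox6a1 at 500 to 560 TPM with dopamine and 739 to 911 TPM with PBS among them, are the ubiquitous ones.

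**Figure D3:**
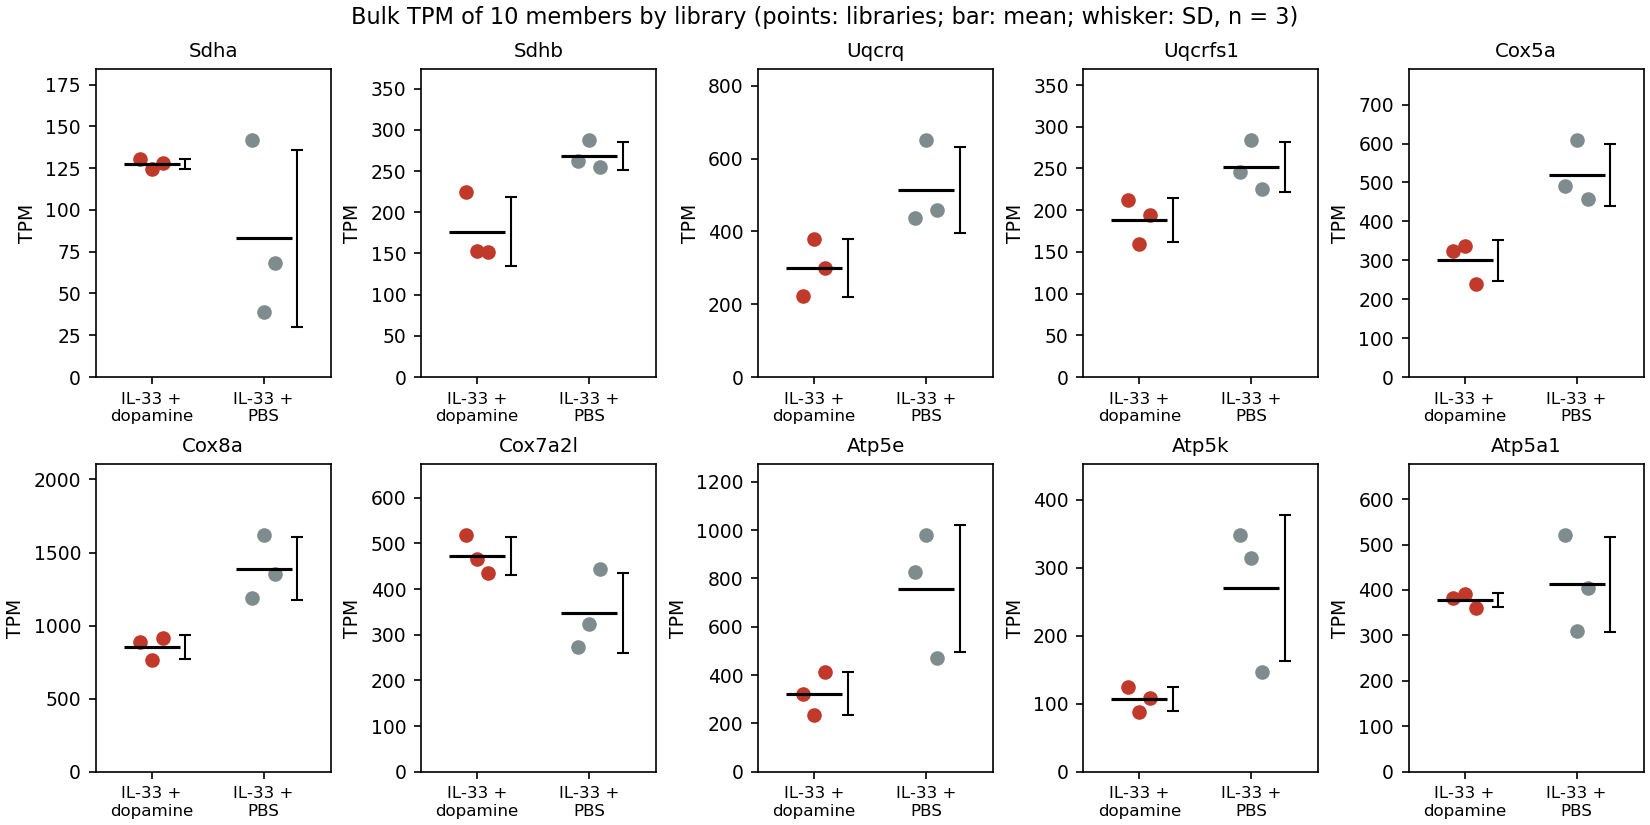
TPM of 10 members in the 6 bulk libraries, with points for libraries, bars for means and whiskers for SD (n = 3). Sdhb, Uqcrq, Uqcrfs1, Cox5a, Cox8a, Atp5e and Atp5k are lower in every dopamine library, whereas Sdha, Cox7a2l and Atp5a1 overlap.

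Apart from Cox6b2 and Cox7a1, which were listed at 0 in some libraries of each group, the largest fold changes of the bulk fit were in complex V. Atp5e, the epsilon subunit of the central stalk, was at 321, 236 and 415 TPM with dopamine, against 824, 979 and 470 TPM with PBS. All dopamine libraries were below the lowest PBS library, with a log2 fold change of -1.20 ± 0.29 (limma adjusted p = 0.0898). Atp5k, subunit e, which helps ATP synthase to dimerise, was at 124, 87.9 and 109 TPM with dopamine, against 348, 314 and 147 TPM with PBS. Again no library crossed, and the log2 fold change was -1.25 ± 0.33 (limma adjusted p = 0.0974). The catalytic beta subunit Atp5b was at 819, 543 and 669 TPM with dopamine, against 977, 901 and 907 TPM with PBS, a smaller but complete separation (log2 fold change -0.47 ± 0.18, limma adjusted p = 0.158). Its partner alpha subunit Atp5a1 was at 381, 391 and 361 TPM with dopamine, against 521, 310 and 405 TPM with PBS, with the dopamine libraries inside the PBS range. In all, 11 of 16 complex V members lay lower without overlap (6.57% of all genes), and Atp5h, Atp5md, Atp5mpl, Atp5o and Atp5a1 overlapped.

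The 3 genes for the c-ring, whose mature proteins are identical, differed in how far apart the groups stood. Atp5g3 was at 223, 161 and 159 TPM with dopamine, against 310, 484 and 299 TPM with PBS (log2 fold change -0.99 ± 0.25, limma adjusted p = 0.0960). Atp5g1 was at 221, 270 and 199 TPM with dopamine, against 427, 409 and 304 TPM with PBS (log2 fold change -0.72). Atp5g2 was the most abundant of them, at 554, 479 and 511 TPM with dopamine, against 712, 816 and 595 TPM with PBS (log2 fold change -0.45). None of the 3 overlapped, and differences between them were not tested. Reads of members that have pseudogene copies could have been split by the authors' quantification, so single levels are uncertain.

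Removing 1 PBS library changed which members passed. Without PBS library 1, 10 members passed in limma, where 14.3% of all genes passed and 0.997% as lower. These were Atp5d, Atp5g3, Atp5j2, Cox4i1, Cox5a, Cox6a1, Cox6b1, Cox6c and Cox8a as lower, and Sdha as higher (log2 fold change 1.29, adjusted p = 0.0329). Without PBS library 3, Atp5e (log2 fold change -1.51, adjusted p = 0.0406) and Atp5k (log2 fold change -1.63, adjusted p = 0.0328) passed as lower, where 0.0917% of all genes did. No member passed when any of the other 4 libraries was left out.

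**Figure D4:**
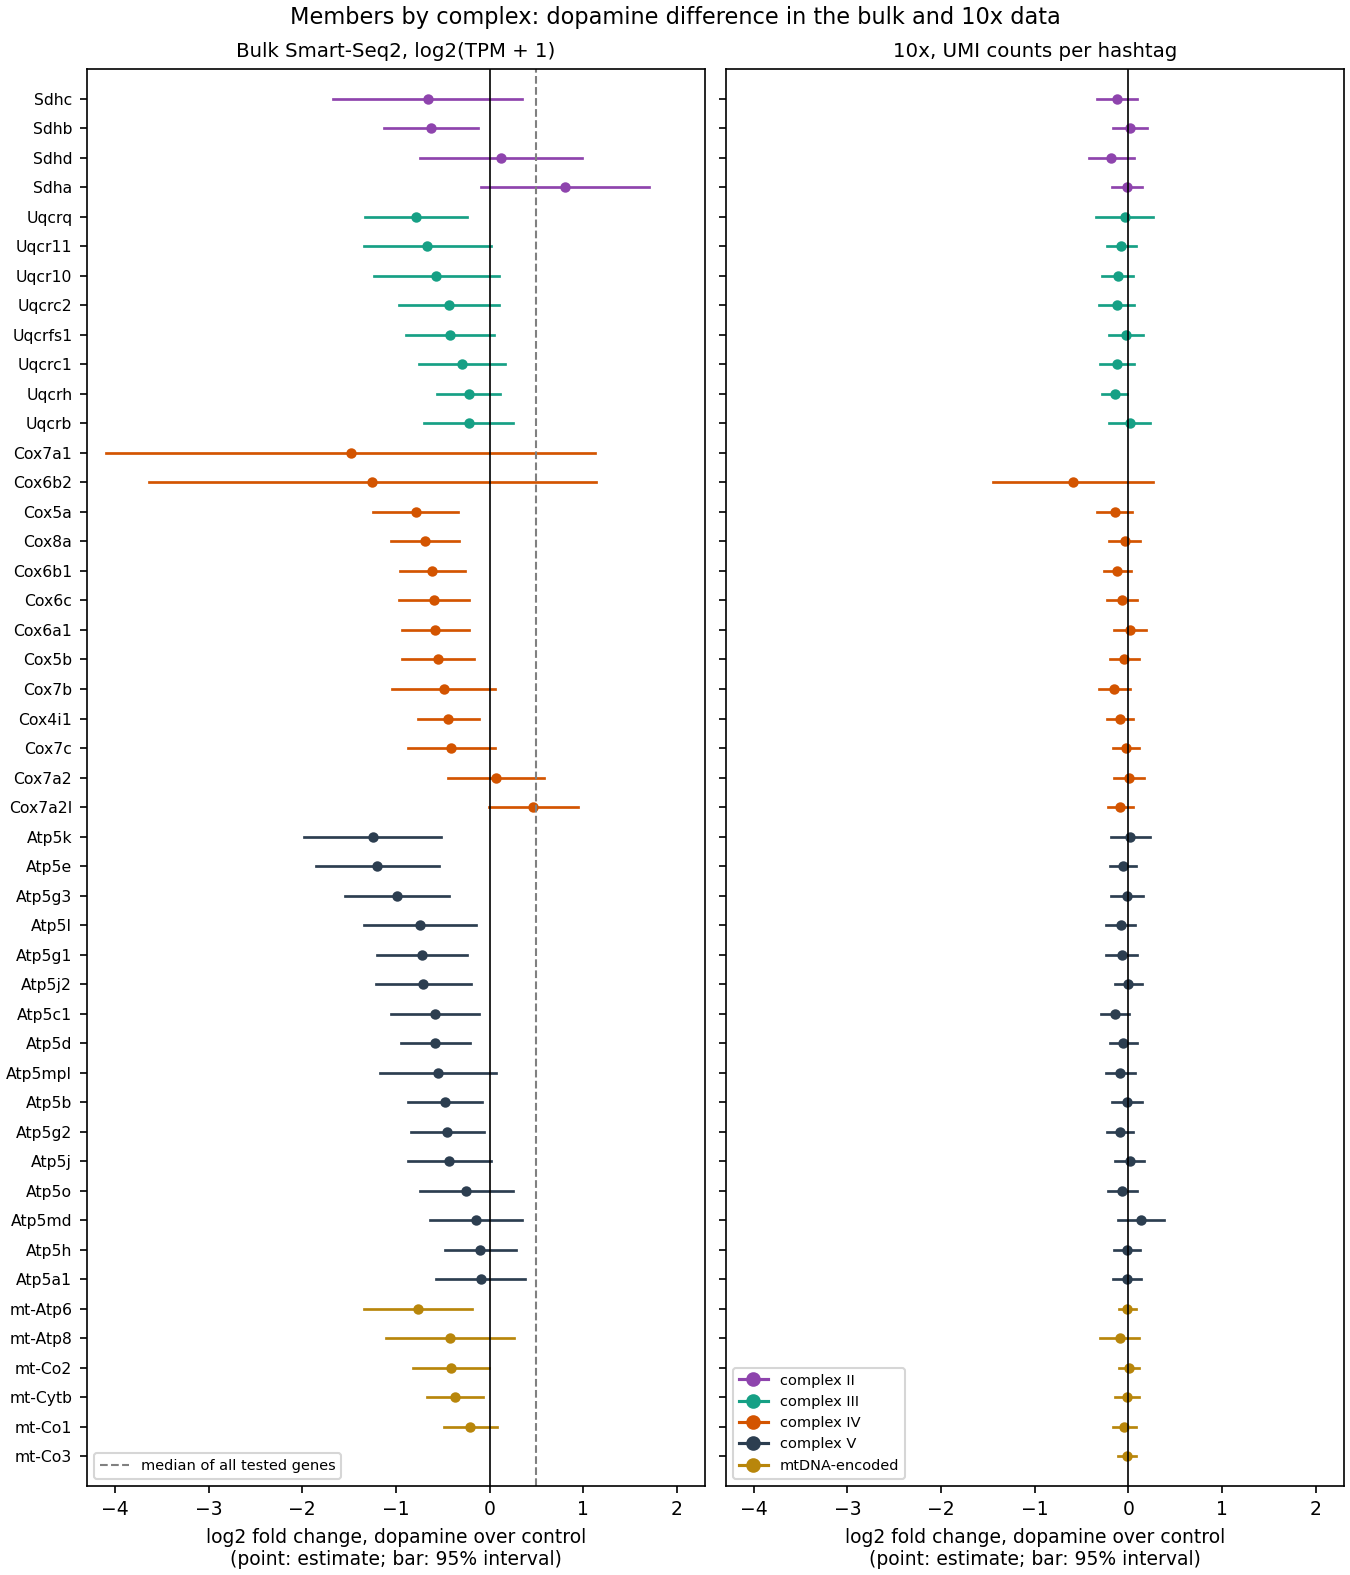
Log2 fold change of the members (points) with 95% intervals (bars), dopamine over control, from the bulk limma fit (left) and the 10x edgeR fit (right). Nearly all bulk points lie left of 0 and of the dashed median of all genes, and the 10x points lie close to 0 with shorter bars. Cox6a2 was tested in neither fit, mt-Co3 only in the 10x fit and Cox7a1 only in the bulk fit.

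The mtDNA-encoded members are co-transcribed and cut from long precursors. Their summed bulk share was 1.98%, 1.81% and 1.24% of TPM with dopamine, against 2.16%, 2.62% and 1.95% with PBS. The groups overlapped, and the log2 ratio of the mean shares was -0.42, or -0.24 without dopamine library 3. These sums hold mt-Co3 in dopamine library 3 alone, at 709 TPM, because it was listed at 0 in the other libraries. They also hold mt-Atp6 and mt-Atp8, whose single levels are uncertain, so the sums and their ratio are uncertain too. mt-Cytb, the single mtDNA-encoded protein of complex III, was at 2174, 1890 and 1746 TPM with dopamine, against 2359, 2742 and 2371 TPM with PBS, without overlap (log2 fold change -0.36 ± 0.14, limma adjusted p = 0.154). mt-Atp6, the proton channel subunit of complex V, was at 5178, 7068 and 3075 TPM with dopamine, against 8353, 9824 and 6751 TPM with PBS (log2 fold change -0.77 ± 0.26, limma adjusted p = 0.134), with 1 dopamine library above the lowest PBS library. The catalytic core subunits of complex IV overlapped as well. mt-Co1 was at 3628, 2836 and 2999 TPM with dopamine, against 3688, 3779 and 3382 TPM with PBS, and mt-Co2 was at 1857, 1249 and 1397 TPM, against 1711, 2373 and 1882 TPM.

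The values of 3 mtDNA-encoded genes depended on the table. mt-Co3, the third core subunit of complex IV, was listed at 0 in 5 of 6 bulk libraries and at 709 TPM in dopamine library 3, yet in the 10x data it was among the members with the most UMIs, at 8308 to 9036 CPM (UMIs per 1000000 of a hashtag) with IL-33 plus dopamine, 8519 to 8856 CPM with IL-33 and 8188 to 8375 CPM with PBS. mt-Atp8 was at 6962, 5040 and 2500 TPM in the dopamine bulk libraries and 5463, 7491 and 5159 TPM in the PBS bulk libraries, but at 59.0 to 87.3 CPM over all hashtags, where mt-Atp6 was at 8084 to 8547 CPM. In the GENCODE M21 annotation mt-Atp8 and mt-Atp6 share 43 bases and mt-Atp6 and mt-Co3 share 1 base. The labels do not say how reads of this stretch were assigned between the 3 genes, and their single levels are uncertain in both tables.

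In the male droplet data, the members were at similar levels with IL-33 plus dopamine and with IL-33. The nuclear members took 1.19%, 1.23% and 1.15% of UMIs in the IL-33 plus dopamine hashtags, against 1.26%, 1.20% and 1.27% in the IL-33 hashtags. The groups overlapped, and the ratio of the means was 0.960. The mtDNA-encoded members took 3.21%, 3.36% and 3.07% with IL-33 plus dopamine, against 3.30%, 3.17% and 3.29% with IL-33, also overlapping. The deposited cells had at most 7.5% mitochondrial UMIs, which bounds the mtDNA-encoded levels in all groups.

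In the edgeR quasi-likelihood fit over 10559 genes none of 46 members passed, where 0.00% of all genes passed as higher and 0.0284% as lower. DESeq2 passed 0 members too, and 26 genes in all. At an unadjusted p under 0.05 edgeR gave 1 member lower and 0 higher (4.66% and 4.81% of all genes), and 6 tested members lay lower without overlap and 0 higher (6.93% and 7.81%). The member median log2 fold change was -0.05, and 38 of 46 lay below the median of all genes. That median was -0.03 without hashtag 6, -0.08 without hashtag 7, -0.08 without hashtag 4 and -0.01 in cells between the 10th and 90th percentile of UMIs. The 95% intervals were narrow: for 45 of the 46 members they stayed within a 1.5-fold change in either direction. The exception was Cox6b2, at 1.16 to 1.5 CPM with IL-33 plus dopamine and 1.16 to 2.92 CPM with IL-33.

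Uqcrh had the smallest p of the members, at 899, 880 and 806 CPM with IL-33 plus dopamine, against 988, 931 and 947 CPM with IL-33. The hashtags did not overlap, and the log2 fold change was -0.15 ± 0.06 (edgeR adjusted p = 0.495). The other 5 tested members without overlap were Uqcr11, Cox7b, Cox6b1, Cox7a2l and Atp5c1. Atp5c1, the gamma subunit that turns within the catalytic head, was at 306, 312 and 283 CPM with IL-33 plus dopamine, against 340, 319 and 339 CPM with IL-33 (log2 fold change -0.15 ± 0.07, edgeR adjusted p = 0.528). Cox7b, a small complex IV subunit, was at 220, 234 and 226 CPM with IL-33 plus dopamine, against 257, 236 and 262 CPM with IL-33, separated by a narrow gap.

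Of the members with the smallest bulk p-values, Cox6b1 was also lower here without overlap, at 333, 341 and 324 CPM with IL-33 plus dopamine, against 357, 355 and 371 CPM with IL-33 (log2 fold change -0.12 ± 0.07, edgeR adjusted p = 0.571). Atp5e, Atp5k and Cox8a overlapped. Atp5e was at 710, 756 and 675 CPM with IL-33 plus dopamine, against 773, 732 and 724 CPM with IL-33, a log2 fold change of -0.06 with a 95% interval of -0.20 to 0.09. Atp5k was at 130, 147 and 124 CPM with IL-33 plus dopamine, against 143, 116 and 136 CPM with IL-33, with an interval of -0.19 to 0.23. Cox8a was at 658, 728 and 608 CPM with IL-33 plus dopamine, against 719, 634 and 699 CPM with IL-33, with an interval of -0.21 to 0.13. Sdha, above the median of all genes in bulk, was at 88.6, 83.8 and 85.7 CPM with IL-33 plus dopamine and 87.5, 87.9 and 86.2 CPM with IL-33. Of the 45 members in both fits, 36 had a bulk log2 fold change below the lower end of their 10x interval and 3 above the upper end. The bulk and 10x data differ in sex, library chemistry, unit and scale, and the difference between them was not tested.

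The subunit b gene, outside the members, was listed in bulk as Atp5pb at 258, 164 and 176 TPM with dopamine, against 265, 301 and 234 TPM with PBS. As Atp5f1 it was at 244, 240 and 220 CPM with IL-33 plus dopamine, against 256, 240 and 262 CPM with IL-33. The muscle isoforms were near 0 here as well: Cox6a2 reached at most 0.23 CPM, and Cox7a1 was at 0.30 to 0.62 CPM with IL-33 plus dopamine and 0.93 to 1.08 CPM with IL-33. A count of 0 allows up to 3 counts, which is 0.324 to 2.15 CPM depending on the hashtag, counting error only.

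IL-33 over PBS gave small differences too, and it shares hashtags 3, 4 and 5 with the dopamine comparison. None of 46 members passed in edgeR over 10820 genes, where 0.00% passed in each direction, and DESeq2 passed 0 members and 45 genes in all. At an unadjusted p under 0.05 there were 3 members higher and 1 lower (5.89% and 5.79% of all genes). Without overlap, 10 were higher and 4 lower (20.8% and 13.5%). Uqcrh was at 988, 931 and 947 CPM with IL-33, against 779 and 783 CPM with PBS, a log2 fold change of 0.25 ± 0.07 (edgeR adjusted p = 0.229). Cox7a2l was at 562, 553 and 554 CPM with IL-33, against 477 and 486 CPM with PBS (log2 fold change 0.17 ± 0.07, edgeR adjusted p = 0.381). Both genes lay clear of PBS in all 3 IL-33 hashtags, and with IL-33 plus dopamine they were at 806 to 899 CPM and at 508 to 546 CPM.

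Differences between the complexes were not tested. Complex IV had a median log2 fold change of 0.07, with 5 of 12 members higher without overlap (20.8% of all genes), complex III had 0.02 and complex V had -0.06, with 14 of 16 members under the all-gene median. The summed complex III share was 0.191%, 0.176% and 0.187% of UMIs with IL-33, against 0.163% and 0.167% with PBS, where the groups did not overlap. Uqcrh, the largest part of this sum, averaged 955 CPM with IL-33 and 781 CPM with PBS. Of the 8 complex III members, 4 lay under the all-gene median, so the summed share does not describe all of them. Sdha was at 87.5, 87.9 and 86.2 CPM with IL-33, against 93.7 and 98.9 CPM with PBS, lower in every hashtag (log2 fold change -0.19, edgeR adjusted p = 0.461). mt-Co1 was at 6292, 5725 and 5929 CPM with IL-33, against 5073 and 5469 CPM with PBS (log2 fold change 0.15, edgeR adjusted p = 0.381), and mt-Atp8 at 68.6, 72.1 and 70.5 CPM, against 87.3 and 80.4 CPM (log2 fold change -0.28, edgeR adjusted p = 0.386). The overlapping gene mt-Atp6 was at 8426, 8265 and 8470 CPM with IL-33, against 8177 and 8380 CPM with PBS (log2 fold change -0.02). How UMIs were assigned between mt-Atp8 and mt-Atp6 is uncertain, so the mt-Atp8 difference may not reflect its RNA. The member median was -0.01 and turned to 0.01 without hashtag 4.

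The authors' 6 clusters differed in how much of their UMIs the nuclear members took. Clusters 2 and 3 held the lowest shares in each of the 8 hashtags, at 1.08% to 1.16% and 1.09% to 1.19%, and cluster 1 held the highest in 6 of them, at 1.27% to 1.36%. The clusters were built by the authors from expression, so these shares are a description. Within clusters, dopamine and IL-33 hashtags overlapped in clusters 0 to 4. In cluster 5 the share was 1.27%, 1.29% and 1.14% with IL-33 plus dopamine, against 1.32%, 1.33% and 1.36% with IL-33, without overlap, and 1.19% and 1.26% with PBS.

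In cluster 5, 40 of 45 members lay under the all-gene median there, with a median of -0.13. This median was -0.07 without hashtag 5, -0.10 without hashtag 8 and -0.16 without hashtag 4. No member passed in edgeR, where 0.112% of the cluster's genes passed as lower and 0.154% as higher, and 5 members were lower at an unadjusted p under 0.05 (3.88% of genes). These were Sdhc (log2 fold change -0.65 ± 0.22, edgeR adjusted p = 0.348), Atp5g2, Atp5l, Uqcrh and Atp5c1. Their number was 1 without hashtag 5, 1 without hashtag 7, 3 without hashtag 3 and 8 without hashtag 6. The share of all genes at this threshold was not taken in these refits, so the counts only describe how far the number moved. Cluster 5 held 84, 170 and 26 cells of the IL-33 plus dopamine hashtags, against 327, 97 and 178 of the IL-33 hashtags, and its median of 8142 UMIs per cell was the highest of the 6 clusters. In the test of whether the dopamine difference varied between clusters 0 of 45 members passed, where 0.0686% of 8744 genes did, and the smallest edgeR adjusted p of a member was 0.696 (Atp5c1). In clusters 0 to 4 no member passed either, where 0.0388% of genes passed as higher and 0.00% as lower in cluster 0, 0.0375% and 0.0375% in cluster 1, 0.0274% and 0.0274% in cluster 4, and none in clusters 2 and 3, and the member medians lay between -0.04 and 0.00.

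**Figure D5:**
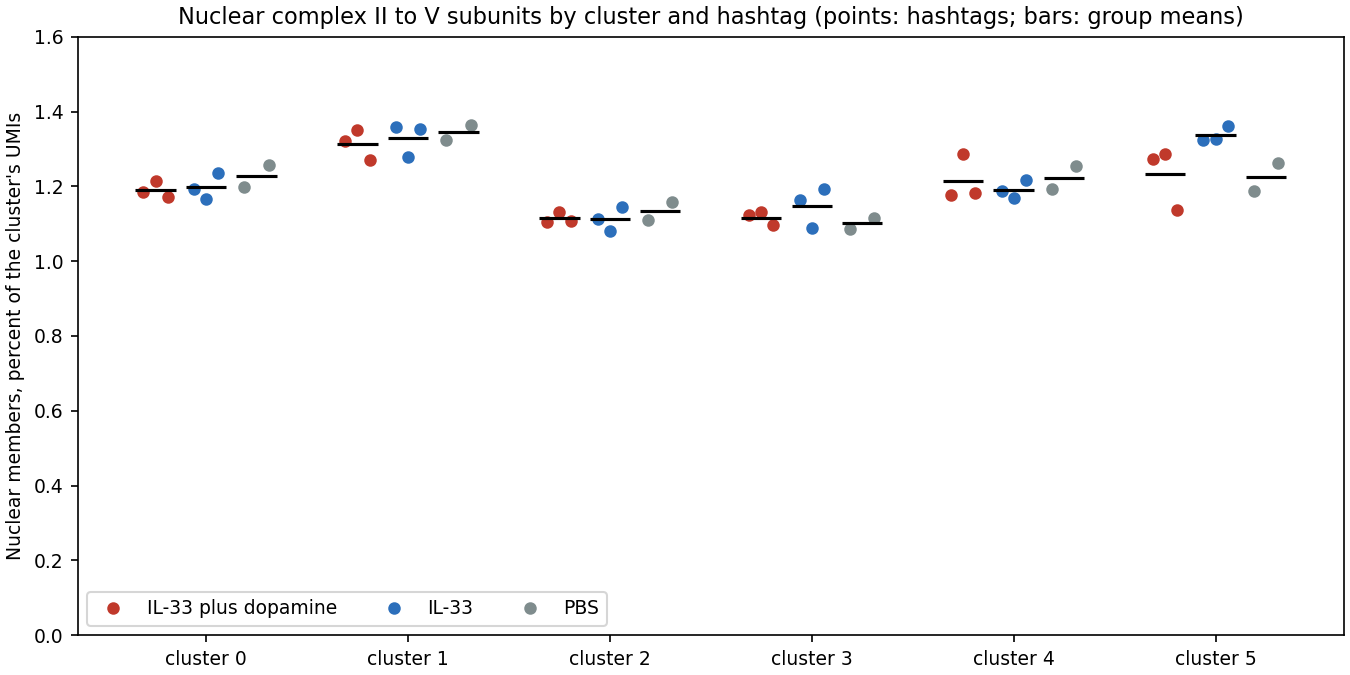
Summed UMIs of the nuclear members as a percent of each cluster's UMIs, by hashtag (points) with group means (bars). Cluster 1 is high and clusters 2 and 3 are low in all groups, and cluster 5 is the only cluster in which the dopamine and IL-33 hashtags do not overlap.

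Among genes outside the members that act on these complexes, none passed in any comparison. Uqcc2, an assembly factor of complex III, was at 67.5, 47.9 and 84.0 TPM in bulk with dopamine, against 171, 187 and 106 TPM with PBS (log2 fold change -1.20 ± 0.31, limma adjusted p = 0.0962). Atpif1, the inhibitor of ATP synthase, was at 178, 91.7 and 173 TPM with dopamine, against 334, 407 and 239 TPM with PBS (log2 fold change -1.17 ± 0.31, limma adjusted p = 0.0962). Both genes were lower in every dopamine library than in any PBS library. In the 10x data Atpif1 was at 111, 122 and 88.9 CPM with IL-33 plus dopamine, 137, 110 and 136 CPM with IL-33 and 89.4 and 92.0 CPM with PBS.

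Coq8a, an atypical kinase needed for coenzyme Q synthesis, was at 80.9, 42.4 and 27.8 TPM in bulk with dopamine, against 8.92, 6.22 and 6.40 TPM with PBS (log2 fold change 2.53 ± 0.46, limma adjusted p = 0.0832). In the 10x data it was at 20.1, 20.5 and 18.7 CPM with IL-33 plus dopamine, against 16.3, 14.8 and 17.0 CPM with IL-33 (log2 fold change 0.30 ± 0.11, edgeR adjusted p = 0.463). Neither set of libraries overlapped, and PBS hashtags were at 25.04 and 9.53 CPM. Sdhaf1, which inserts iron-sulfur clusters into Sdhb, was at 150, 130 and 147 CPM with IL-33 plus dopamine, against 117, 96.8 and 105 CPM with IL-33 (log2 fold change 0.42 ± 0.09, edgeR adjusted p = 0.220). In bulk Sdhaf1 was at 21.2, 30.6 and 35.3 TPM with dopamine and 22.8, 24.0 and 27.3 TPM with PBS, which overlapped. The regulator Nrf1 was at 62.6, 68.5 and 74.2 TPM in bulk with dopamine, against 54.7, 29.2 and 27.2 TPM with PBS. Its log2 fold change was 0.94 ± 0.34 (limma adjusted p = 0.150). Polrmt, the RNA polymerase that transcribes mtDNA, was at 18.5, 15.6 and 19.7 TPM with dopamine, against 12.7, 3.34 and 5.17 TPM with PBS.

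The remaining genes with the smallest p-values of these lists did not pass either. In bulk Coa3, Cox17, Coq7, Tefm, Slc25a4, Slc25a5 and Vdac3 had log2 fold changes between -2.12 (Coq7, a hydroxylase of coenzyme Q synthesis) and -0.48 (Slc25a5, an ADP/ATP carrier). In the 10x comparison of IL-33 plus dopamine with IL-33, Ttc19, Coq10b, Coq5, Mterf1a, Gabpb1 and Tfb2m had values of 0.26 to 0.36, and Cox20, Vdac2, Vdac1 and Slc25a4 had values of -0.24 to -0.17. The complex III members Uqcr10 and Uqcrc2 were at -0.11 and -0.13. For IL-33 against PBS, Uqcc3, Surf1, Cox15, Vdac3 and Vdac2 had log2 fold changes of 0.15 to 1.05, and Coq10b, Ndufa4, Ssbp1, Mterf1a, Tfam and Slc25a3 of -0.40 to -0.13. Cox15, which makes the heme A of complex IV, had the highest of these values (1.05 ± 0.37, edgeR adjusted p = 0.313).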

How the data were processed

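Bulk values are TPM computed by the authors, and the 10x values are UMI counts per cell as deposited, with hashtag, treatment and cluster from the deposited cell table. The submitters' processing notes name cutadapt 2.10, STAR 2.7.5c, RSEM 1.3.3, Cell Ranger 6.1.1, Seurat 4.0.2 and mm10. Each bulk column sums to 1000000 and its read depth is unknown. The percent of mitochondrial UMIs per cell is the authors' own value. The labels do not say how doublets were treated, and no caller was run.

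Bulk genes that reached 1 TPM in 3 or more of the 6 libraries were tested with limma 3.58.1 (trend) on log2(TPM + 1), which understates changes of low genes. UMI counts were summed per hashtag, or per hashtag and cluster, and tested with edgeR 4.0.16 quasi-likelihood (TMM, filterByExpr), with DESeq2 1.42.0 as an alternative, in R 4.3.3. All p-values are two-sided and adjusted by Benjamini-Hochberg over every gene tested, and the threshold was 0.05. The scripts were tested on simulated data. Intervals cover 95% and rest on the spread between replicates. IL-33 against PBS was fitted with all 8 hashtags.

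The members and the lists were chosen with earlier results of these data known. Per complex, and per other list, the 3 genes with the smallest p in each comparison were named, together with core subunits and isoform families; members in counts of 10 or fewer were named after their values were seen. Annotation came from GENCODE M21 and promoters from RefSeq (GRCm38.p6).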

Additional observations from a re-analysis of the deposited data

How the results depend on the processing

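The bulk member median (-1.01) kept its sign in every setting tried. It moved to -0.58 with quantile normalization, to -0.33 with detected genes as a covariate, and to -0.43 with length, GC and level trends removed, and lay between -1.20 and -0.69 when single libraries were left out. The count of members passing was 0, but 0 to 10 when single libraries were left out. It was 10 without PBS library 1, where 14.3% of all genes passed. Without PBS library 3 it was 2, where 0.825% of all genes passed. The log2 ratio of nuclear shares (-0.48) lay between -0.55 and -0.39 when single libraries were left out and was -0.62 with ribosomal and mtDNA genes taken out of the denominator.

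Equally numbered bulk libraries did not deviate together (correlations 0.0186, -0.0710 and -0.00177). With the replicate block the median stayed at -1.01, which the balanced design fixes in advance, so only the p-values could change. In that fit 0 members passed.

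In the 10x data the log2 ratio of mtDNA-encoded shares was -0.0166, and reversed to 0.0155 in cells between the 10th and 90th percentile of UMIs. The median for IL-33 plus dopamine against IL-33 (-0.0494) was -0.0142 in those cells and -0.0297 with clusters weighted equally, and lay between -0.0812 (without hashtag 4) and -0.0273 (without hashtag 6). The median for IL-33 against PBS (-0.01) was -0.0784 in those cells, and lay between -0.0439 (without hashtag 1) and 0.0103 (without hashtag 4, the sign reversed). The causes were not tested. Bulk precision is limited by 3 libraries a group, with a median half-width of 0.48 (log2), against 0.16 in the 10x fit.

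The overlap counts by setting and the cluster 5 medians without single hashtags were chosen after seeing the data.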
